A study of Mus musculus with 8 samples.

Results

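The genes of fatty acid synthesis were followed across the livers and tumors of Fah-/- mice. These were 10 genes, chosen by name for their roles in de novo lipogenesis and its regulation: Acly, Me1, Acaca, Fasn, Elovl6, Scd1, Srebf1, Mlxipl, Thrsp and Pnpla3. All 10 were found among the 22504 Ensembl mouse genes of the deposited expression table. RNA of 8 samples was sequenced. All came from Fah-/- mice on a 129S4 background, whose tyrosine catabolism is cut at its final step and which survive on NTBC (7.5 mg/L in the drinking water), an inhibitor acting upstream of that step. The 3 C 8w samples (liver; 1a, 2a and 3a) had 8 weeks of moderate chronic liver injury (MCLI) on 2.5% of the NTBC dose. The 3 C 8w + A 4w samples (liver; C096, C097 and C098), called the SALI livers here, had those 8 weeks and then 4 weeks of severe acute liver injury with NTBC withdrawn. Both C 12w samples (tumor; 2e and 3e) came from 12 weeks of MCLI, so that in comparisons with C 12w tissue and treatment cannot be told apart, and each tumor is also described separately. Age and sex are not given in the sources used here. No group of wild-type mice or of mice on full NTBC was analysed here, so C 8w serves as the reference and not as a healthy liver.

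De novo lipogenesis turns citrate from sugar breakdown into fat. Acly splits citrate into acetyl-CoA, Acaca carboxylates it to malonyl-CoA, Fasn joins these units into palmitate with NADPH that Me1 helps to supply, and Elovl6 and Scd1 lengthen and desaturate the product. In liver the pathway is switched on after feeding by the transcription factors SREBP-1c (gene Srebf1), which answers to insulin, and ChREBP (gene Mlxipl), which answers to glucose, while Thrsp promotes lipogenesis and Pnpla3, itself a SREBP-1c target, codes for a protein of lipid droplets.

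Values are FPKM, fragments per kilobase scaled to library size. The summed FPKM per sample was between 324735 and 399342, and between 9797 and 10658 genes per sample had at least 1 FPKM. FPKM does not hold read numbers, so the absolute depth is unknown; steps among the lowest values placed the depth of the other samples at 0.92 to 1.05 of that of 1a, from a peak that held between 8.36% and 25.1% of the low genes. Groups were compared on log2(FPKM + 1) with limma over the 10244 genes with at least 1 FPKM in at least 4 samples, and a gene is said to have risen or fallen when its Benjamini-Hochberg adjusted p over all these genes was under 0.05. This scale understates the change of low genes. Each p-value sets a difference between group means against the spread of these samples within their groups. That spread is estimated over all 3 groups together. Of the 10 genes, 9 were tested, and Pnpla3 lay under the limit. Of 14 hepatocyte markers 13 were matched. Their summed FPKM without Alb (Alb was listed at 0 in the 5 C 8w and C 12w samples) was between 19524 and 25696 in C 8w, between 15634 and 18326 in the SALI livers, 27705 in 2e and 15185 in 3e. One protocol label names retina as the source, but 6 of 7 retina markers lay under 1 FPKM in every sample. The SALI livers carry another series of codes than the rest, so code series and group cannot be told apart, and Gapdh, a gene every cell uses, read between 68.2 and 99.9 FPKM in them against 0.0980 to 0.247 in the other 5. The SALI livers may thus have been counted differently from the rest, which bears on every difference between them and the other samples and was not tested. Fah itself, for which the value of the whole gene cannot show a deleted part, read between 15.6 and 16.8 FPKM in C 8w, between 5.02 and 6.36 after SALI, and 14.4 and 13.5 in the tumors.

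Promoter sequences of 9 of the 10 genes were read from RefSeq (build GRCm38.p6) as windows of 300 bases, 250 before and 50 after each of 13 transcription starts. They were searched on both strands for CCAAT (bound by NF-Y, a partner of SREBP), CACGTG (an E-box) and TCACNCCAC (a form of the sterol regulatory element). CCAAT was present in 8 of the 13 windows, belonging to 7 genes, against 37.4% of 32851 mouse promoters of the same length. Of these 7, Fasn, Srebf1, Thrsp and Mlxipl fell after SALI and Me1 rose. Acly did not pass the test and Pnpla3 lay under its limit, so CCAAT was not confined to genes that fell. CACGTG was present in 1 window, against 7.15% of promoters, and TCACNCCAC also in 1 window, against 1.24%; both windows were of Mlxipl, at different starts. Printed below are 120 bases each of 3 genes that fell together after SALI, Fasn (chr11:120824548-120824667, minus strand), Thrsp (chr7:97417551-97417670, minus strand) and Mlxipl (chr5:135089710-135089829, plus strand). They run 5′ to 3′ on the strand of the gene, and capitals mark each CCAAT box, which reads ATTGG where it lies on the opposite strand, and the E-box:
Fasn: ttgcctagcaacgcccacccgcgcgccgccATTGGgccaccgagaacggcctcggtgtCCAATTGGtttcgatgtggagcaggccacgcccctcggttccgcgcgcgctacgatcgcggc
Thrsp: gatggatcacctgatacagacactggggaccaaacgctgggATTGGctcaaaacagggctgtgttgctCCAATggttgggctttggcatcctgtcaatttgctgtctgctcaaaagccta
Mlxipl: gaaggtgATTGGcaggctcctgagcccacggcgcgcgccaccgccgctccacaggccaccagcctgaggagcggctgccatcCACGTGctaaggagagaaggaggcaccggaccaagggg
In Fasn a CCAAT on each strand overlap in the middle of the stretch, 62 and 59 bases before the start, and another match lies 90 bases before it. Thrsp holds 2 matches, 79 and 52 bases before its start. In Mlxipl the CCAAT match lies 173 bases and the E-box 98 bases before the start. A match of letters does not show that a factor was bound, and no binding was measured.

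Both transcription factors of the pathway, its synthase and Thrsp were lower after SALI than after MCLI alone. Of the 9 genes tested, Srebf1, Mlxipl, Fasn and Thrsp fell and Me1 rose in the SALI livers against C 8w (limma, adjusted p under 0.05), and Acly, Acaca, Elovl6 and Scd1 did not pass the test. Over all genes 39.4% changed in this comparison, 25.3% higher and 14.1% lower, against 1 higher and 4 lower of the 9. Their median log2 fold change was -1.18, and that of all genes tested was 0.12. With median-ratio scaling 49.4% of all calls were higher in the SALI livers, against 64.2% here, and none of the 5 genes changed direction. These are bulk tissues, in which fewer cells of a type and less RNA per cell cannot be told apart. Markers of other cells moved in the same comparison. The 7 adipocyte markers summed to between 14.2 and 25.3 FPKM in C 8w and between 174 and 261 after SALI. The latter were mostly Fabp4 and Cidec, which liver cells can express. Lep, Plin1 and Retn were under 1 in every sample, and Adipoq and Cfd overlapped between the groups. The 5 bile duct markers summed to between 9.50 and 15.2 FPKM in C 8w and between 26.3 and 32.7 after SALI. The part of other cells in the values of the lipogenic genes was not tested.

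**Figure D1:**
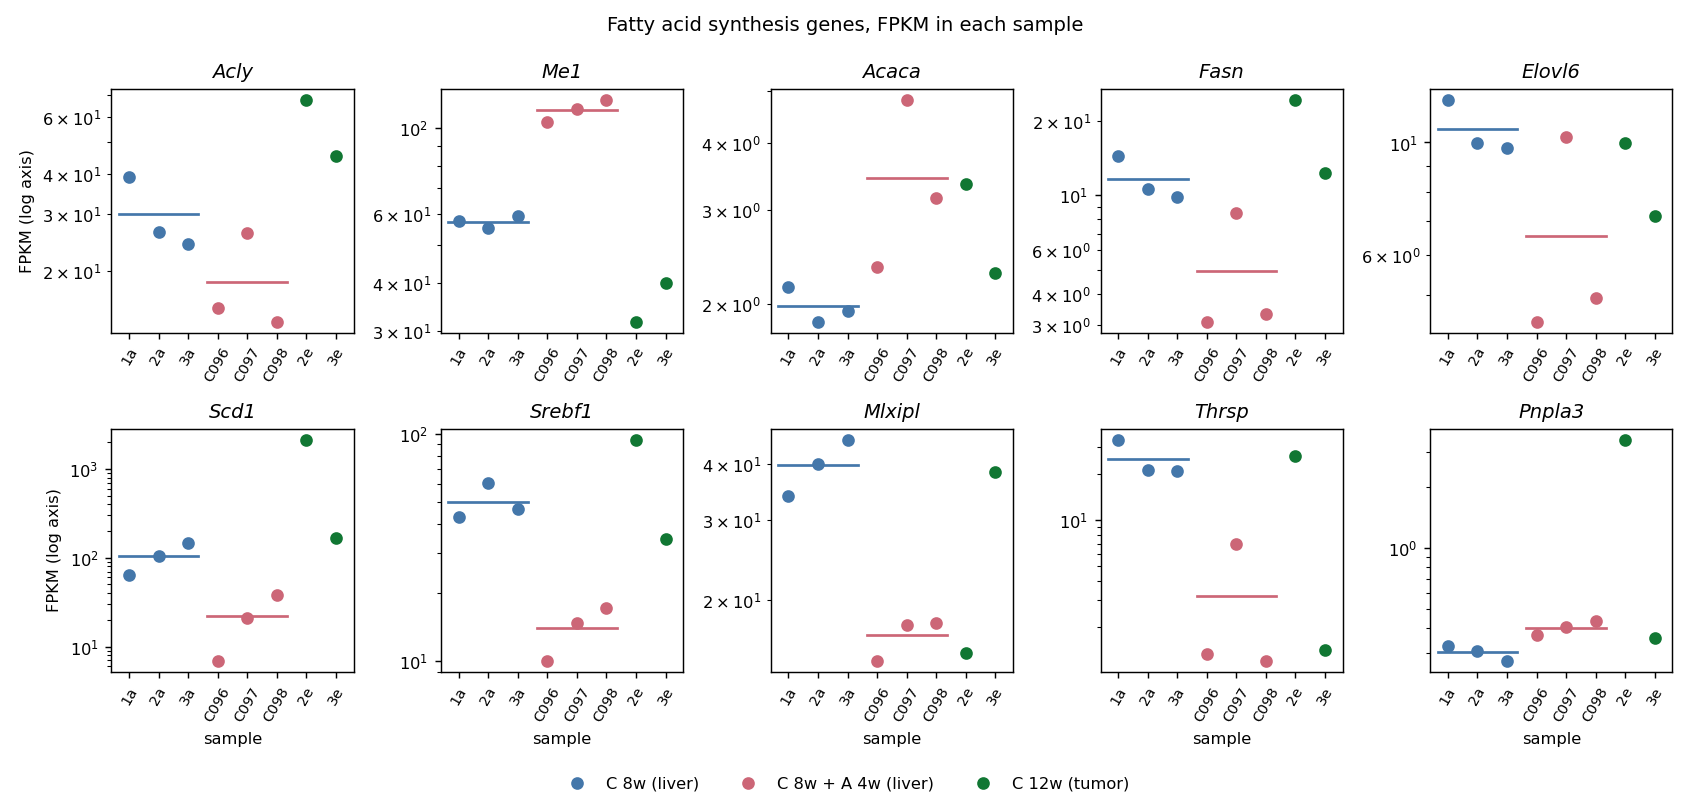
FPKM of the 10 genes in each of the 8 samples, on a log axis per gene; points are samples, coloured by group, and lines are the means of the 3 samples of each liver group. Srebf1 and Mlxipl of the SALI livers lie below every C 8w sample and Me1 above, while tumors 2e and 3e lie far apart for Scd1, Thrsp and Pnpla3.

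Srebf1 and Mlxipl both fell. Srebf1 read 42.9, 60.7 and 46.8 FPKM in C 8w and 10.02, 14.7 and 17.2 in the SALI livers. Every C 8w sample lay above every SALI liver, and the means, 50.2 ± 9.32 and 13.9 ± 3.62 (SD, n = 3 each), differed 3.60-fold. Its log2 fold change was -1.79 (SE 0.35, limma, adjusted p = 0.00463). Mlxipl read 34.0, 40.1 and 45.4 FPKM in C 8w and 14.6, 17.6 and 17.7 after SALI. These groups did not overlap either, with means of 39.8 ± 5.70 and 16.6 ± 1.77 (SD, n = 3 each) and a log2 fold change of -1.21 (SE 0.29, limma, adjusted p = 0.0114). Both calls were kept under every alternative in which the gene was tested.

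Thrsp (also called Spot 14), whose protein works beside the lipogenic enzymes, was the most reduced of the 9 genes by fold of the means. It read 33.3, 20.99 and 20.8 FPKM in C 8w, and 1.34, 6.95 and 1.20 in the SALI livers. Sample C097 stood 5.79-fold above C098, the lowest, and was still below all 3 C 8w samples. The means were 25.1 ± 7.18 and 3.16 ± 3.28 (SD, n = 3 each), a 7.92-fold difference. The log2 fold change was -2.88 (SE 0.83, limma, adjusted p = 0.0243). Leaving out 1a, 2a, 3a, C096 or C098 ended this call, with adjusted p = 0.0862, 0.0568, 0.0564, 0.0785 and 0.0793 in turn (limma). Without C097 the log2 fold change was -3.49 and the call was kept (limma, adjusted p = 0.0185).

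Fasn, the synthase itself, fell as well. Its FPKM was 14.4, 10.6 and 9.81 in C 8w and 3.08, 8.45 and 3.30 after SALI, so that only C097 came near the C 8w samples and none reached them. The means, 11.6 ± 2.47 and 4.94 ± 3.04 (SD, n = 3 each), differed 2.35-fold, with a log2 fold change of -1.18 (SE 0.35, limma, adjusted p = 0.0288). This call too was lost when 1a, 2a, 3a, C096 or C098 was left out (limma, adjusted p = 0.105, 0.0645, 0.0544, 0.0972 and 0.0953). Acaca, which makes the malonyl-CoA that Fasn uses, read 2.15, 1.86 and 1.94 FPKM in C 8w and 2.35, 4.803 and 3.15 after SALI. Its samples did not overlap, and in the direction opposite to Fasn, but the difference did not pass the test (log2 fold change 0.54, 95% interval 0.08 to 1.00, limma, adjusted p = 0.0638). It passed without C096, at 0.72 (limma, adjusted p = 0.0250), and, at an unchanged size, without 2e or 3e (adjusted p = 0.0393 and 0.0399). Of the 50-base windows of the Acaca transcripts, 30.4% occur in another gene, nearly all of them in Gm5182, so its FPKM may hold fragments of that copy.

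The enzymes that feed the synthase did not move together. Acly read 39.1, 26.4 and 24.3 FPKM in C 8w and 15.4, 26.3 and 13.95 after SALI. The groups overlapped through C097, and the log2 fold change of -0.68 did not pass the test (95% interval -1.31 to -0.06, limma, adjusted p = 0.0772). Without C097 it was -0.95 (limma, adjusted p = 0.0208). Me1, the cytosolic malic enzyme, which makes NADPH, was the gene that rose. It read 57.7, 55.4 and 59.3 FPKM in C 8w and 104, 112 and 118 after SALI, the narrowest relative spread of the 10 genes in either group, and no sample of either group came near the other. The means were 57.4 ± 1.96 and 111 ± 7.22 (SD, n = 3 each), a 1.93-fold rise, with a log2 fold change of 0.94 (SE 0.12, limma, adjusted p = 0.000643), kept under every alternative in which Me1 was tested except a minimum log2 fold change of 1, which it does not reach. Of its 50-base windows 28.3% occur in another gene, mostly in Gm7049 and Gm48795. Among the 632 genes tested with between 20% and 40% shared windows 35.6% rose in this comparison, against 22.2% of the 6318 genes with at most 2%, and the part of shared fragments in the Me1 value was not tested.

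Elovl6 and Scd1, which finish the fatty acid, were lower on average without passing the test. Elovl6, which lengthens palmitate, read 12.1, 9.96 and 9.75 FPKM in C 8w and 4.43, 10.2 and 4.94 after SALI. Only C097 overlapped with C 8w, and the log2 fold change was -0.70 (95% interval -1.30 to -0.09, limma, adjusted p = 0.0663). Without C097 it was -1.03 (limma, adjusted p = 0.00349), and without 2e or 3e the same difference passed narrowly (limma, adjusted p = 0.0492 and 0.0498). Scd1, which makes oleate from stearate, was the most abundant of the 10 genes in C 8w and the most variable. It read 64.6, 105 and 146 FPKM in C 8w and 6.86, 20.7 and 38.1 after SALI. No samples overlapped and the means, 105 ± 40.7 and 21.9 ± 15.7 (SD, n = 3 each), differed 4.81-fold, but the log2 fold change of -2.42 (95% interval -4.48 to -0.36) missed the threshold (limma, adjusted p = 0.0624). Without C096 it was -1.79 (limma, adjusted p = 0.191). The fit of all 8 samples takes its spread for Scd1 also from the tumors, which differed 12.8-fold. In a fit of both liver groups alone the same difference passed (limma, adjusted p = 0.00691), and it passed also without 2e (adjusted p = 0.00674) or without 3e (adjusted p = 0.00690).

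**Figure D2:**
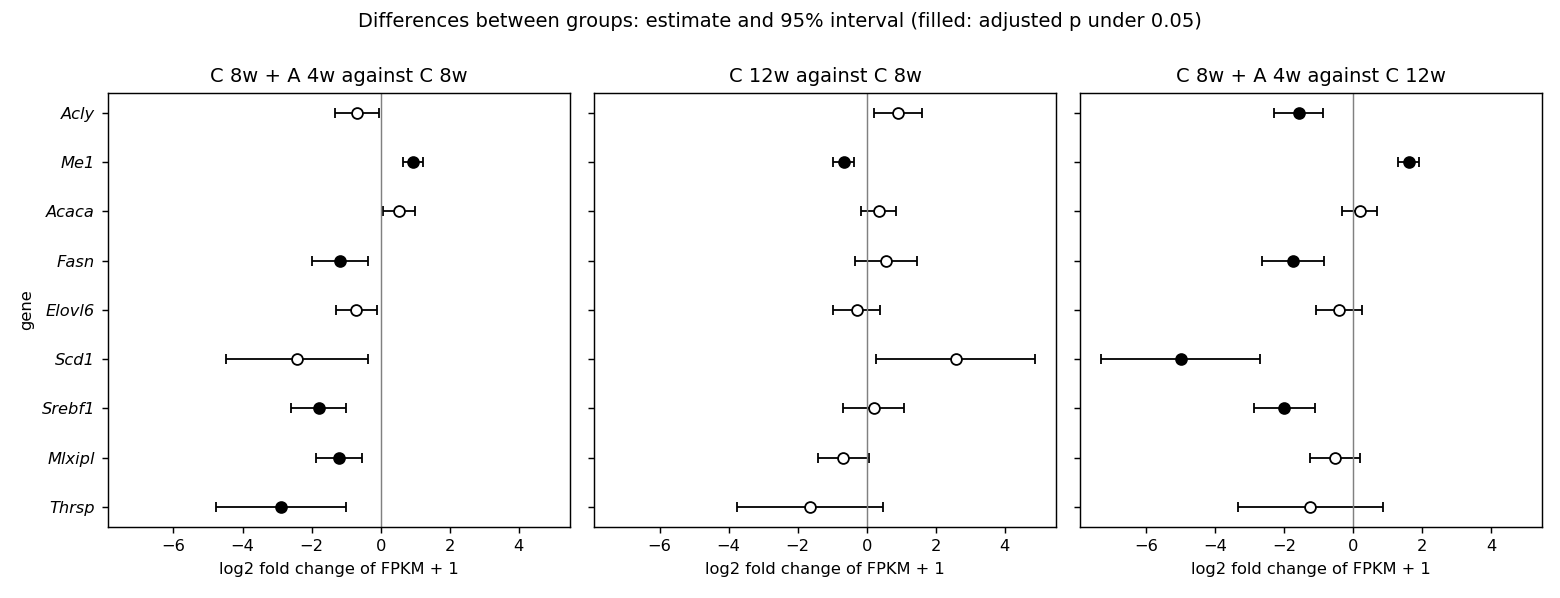
Log2 fold change of FPKM + 1 with its 95% interval for the 9 genes tested in the 3 comparisons; filled points had an adjusted p under 0.05 (limma, all 8 samples in 1 fit). After SALI against C 8w, Me1 lies to the right and Srebf1, Mlxipl, Fasn and Thrsp to the left of 0, and against C 12w the filled points on the left are Acly, Fasn, Scd1 and Srebf1.

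Pnpla3 was barely present in these livers. It read 0.327, 0.308 and 0.274 FPKM in C 8w and 0.368, 0.404 and 0.431 after SALI. The latter were all above the former. These levels lay under the floor of the test, and with no floor Pnpla3 was tested and did not pass.

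Since FPKM is scaled by gene length, the levels of the 10 genes can be ordered within a group. In C 8w Scd1 came at the top, above all samples of the next gene, Me1. Srebf1, Mlxipl, Acly and Thrsp followed in this order of mean FPKM, each overlapping with its neighbours, as Srebf1 did with Me1. Thrsp lay above Fasn in every sample, Fasn and Elovl6 overlapped, and Acaca (1.98 ± 0.151 FPKM, SD, n = 3) and then Pnpla3 (0.303 ± 0.0267) were lower, without overlap. In the SALI livers the order began differently. Me1, at 104 to 118 FPKM, stood above every value of the other 9 genes, the highest of which was 38.1 for Scd1 in C098. Scd1, Acly, Mlxipl and Srebf1 overlapped there. By rank among all 22504 genes, Scd1 went from places 768, 482 and 383 in C 8w to 5096, 2409 and 1308 after SALI, and Thrsp from 1374, 2052 and 2134 to 9596, 5290 and 9859.

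The 3 SALI livers did not have the pathway at the same level. C097 exceeded both other samples of its group by at least 0.5 on the log2 scale in 4 of the 9 genes tested (Fasn, Acly, Elovl6 and Thrsp), against 4.57% of all genes tested. The gap to the next sample was 1.76 for Thrsp, 1.14 for Fasn, 0.92 for Elovl6 and 0.73 for Acly on that scale. Srebf1, Mlxipl, Me1 and Scd1 were not highest in C097. The mean row z-score of the 9 genes was -0.97 in C096, -0.61 in C098 and 0.08 in C097, and between 0.22 and 0.39 in C 8w. Some genes of other cells stood higher in C097 too. Among 7 adipocyte markers, Cfd read 6.59 FPKM in C097 and was listed at 0 in C096 and C098, and Adipoq read 1.12 against 0.144 and 0.0213. The 7 adipocyte markers summed to 215 FPKM in C097, 174 in C096 and 261 in C098, nearly all of it Fabp4 and Cidec, which liver cells can express. Among 7 leukocyte markers, Ptprc (CD45) read 2.40 FPKM in C097 against 0.622 and 0.519, and Adgre1 (F4/80) read 8.16 against 1.87 and 1.97. Cd68 was also highest in C097, at 11.6 against 9.56 and 5.79. Another 4 lay under 1 FPKM in every sample. Of these, Itgam was highest in C097, Ly6g in C096 and Cd79a in C098, and Cd3e was nearly equal in C097 and C098. The 7 leukocyte markers summed to 23.2 in C097, 13.4 in C096 and 9.12 in C098, mostly Adgre1 and Cd68. What part other cells had in these values was not tested. Without C097, 1 of the 9 genes rose and 6 fell against C 8w, with Acly and Elovl6 added, while of all genes 3488 of 10047 were called in that fit, 2023 of them higher.

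The tumors of C 12w were unlike each other, and of the 9 genes Me1 alone passed the test against C 8w. Over all genes 19.2% changed in C 12w against C 8w, 12.2% higher and 6.98% lower (63.6% of the calls higher, and 47.4% with median-ratio scaling). Of the 9 genes, 0 rose and 1 fell. Me1 read 31.8 FPKM in 2e and 39.9 in 3e, both below all C 8w samples, with a log2 fold change of -0.67 (SE 0.14, limma, adjusted p = 0.0142). Leaving out 1a or 3a ended the call (limma, adjusted p = 0.0562 and 0.0558). Acly, at 67.5 FPKM in 2e and 45.3 in 3e, was above every C 8w sample in both tumors, with a log2 fold change of 0.89 that did not pass the test (95% interval 0.19 to 1.59, limma, adjusted p = 0.0713), and passed without C097 (limma, adjusted p = 0.0421). Scd1 and Acaca were also above every C 8w sample in both tumors without passing (log2 fold changes 2.58, 95% interval 0.27 to 4.88, and 0.34, 95% interval -0.17 to 0.86; limma, adjusted p = 0.101 and 0.291). The other 5 genes overlapped with C 8w.

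Several of the genes were far higher in 2e than in 3e. Scd1 reached 2145 FPKM in 2e, the 24th highest value of all 22504 genes in that sample, and 167 FPKM in 3e, which was 1.59 times the C 8w mean and above all 3 C 8w samples. Thrsp was 26.2 FPKM in 2e, within the C 8w range of 20.8 to 33.3, and 1.43 FPKM in 3e, within the range of the SALI livers. Their differences between the tumors, 3.67 and 3.48 on the log2(FPKM + 1) scale, ranked 9 and 14 of 10244 genes. Srebf1 read 94.3 FPKM in 2e and 34.4 in 3e, above and below all C 8w samples. Fasn was 24.3 FPKM in 2e and 12.3 in 3e, the latter inside the C 8w range. Pnpla3, at 0.431 FPKM or less in all livers, read 3.46 FPKM in 2e against 0.356 in 3e. Mlxipl went the other way, with 15.2 FPKM in 2e, as low as after SALI, and 38.4 in 3e, as in C 8w. Acaca (3.36 and 2.28 FPKM in 2e and 3e) and Elovl6 (9.99 and 7.16) differed 1.47-fold and 1.40-fold between the tumors.

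**Figure D3:**
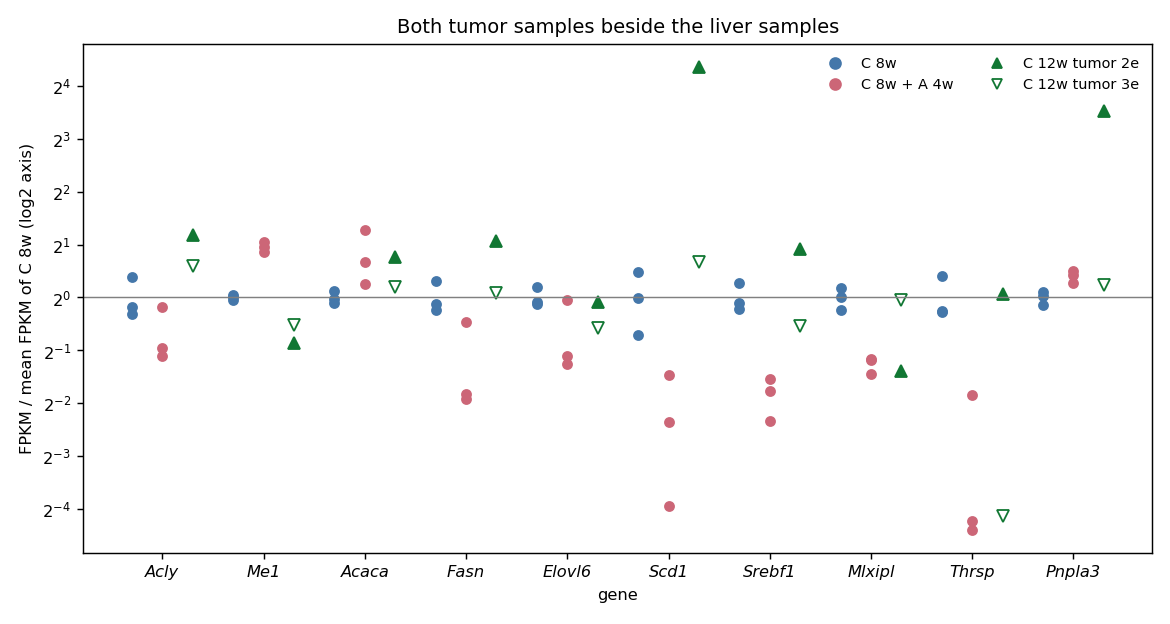
FPKM of each gene divided by the mean FPKM of C 8w, on a log2 axis, for the 3 samples of each liver group (circles) and for tumors 2e (filled triangle) and 3e (open triangle). Tumor 2e lies 20.4-fold above the C 8w mean for Scd1 and 11.4-fold for Pnpla3, and 3e lies among the SALI livers for Thrsp.

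With 1 sample of each kind the tumors cannot be tested against each other, and their difference is given as a description. A difference of at least 1 on the log2 scale in favour of 2e was found for 3 of the 9 genes (Scd1, Srebf1 and Thrsp), against 3.17% of all genes tested, and in favour of 3e for 1 of 9 (Mlxipl), against 3.66%. The median difference, 2e minus 3e, was 0.57 over the 9 genes and -0.11 over all genes tested. Against the range of the 3 C 8w samples, 5 of the 9 genes lay above it in 2e and 2 below, where over all genes 44.0% were above and 33.9% below. In 3e the counts were 3 above and 4 below, and over all genes 55.4% and 29.6%. Markers of other cells also differed between the tumors. The 5 bile duct markers summed to 28.2 FPKM in 2e and 339 in 3e, mostly Spp1, the 6 stellate cell and fibroblast markers to 21.7 and 43.4, and the 12 hepatocyte markers other than Alb to 27705 and 15185. Their part in the tumor values was not tested. Which tumor was kept changed the test of C 12w against C 8w. A fit without 2e or 3e leaves C 12w with 1 sample, which is assumed to vary like the liver samples, so its p-values concern that tumor and not the group. Without 3e, the log2 fold change was 4.41 for Scd1, -1.32 for Mlxipl and 0.0942 for Thrsp. Without 2e, it was 0.74 for Scd1, -0.0427 for Mlxipl and -3.39 for Thrsp.

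Set against the tumors, the SALI livers were lower in Scd1, Fasn, Acly and Srebf1 and higher in Me1. Over all genes 32.8% changed in this comparison, 17.4% higher after SALI and 15.4% lower, against 1 higher and 4 lower of the 9 genes. Of the calls 53.1% were higher, and 35.9% after scaling to equal sums, where the 9 genes again gave 1 higher and 4 lower. Their median log2 fold change was -1.24, and that of all genes 0.01. Scd1 had the largest difference, with every SALI liver at or under 38.1 FPKM and the tumors at 167 and 2145 (log2 fold change -5.00, SE 1.01, limma, adjusted p = 0.00663). Its value was -3.16 without 2e, -6.83 without 3e and -4.37 without C096. Fasn, at 8.45 FPKM or less after SALI, lay below both tumors (log2 fold change -1.74, SE 0.40, limma, adjusted p = 0.0111), and so did Acly (-1.58, SE 0.31, limma, adjusted p = 0.00560) and Srebf1 (-1.99, SE 0.39, limma, adjusted p = 0.00579). Me1 was higher, with the 3 livers at 104 to 118 FPKM and the tumors at 31.8 and 39.9 (log2 fold change 1.61, SE 0.14, limma, adjusted p = 7.14e-05). The value of Srebf1 was -1.27 without 2e and -2.70 without 3e. These 5 calls were kept whichever of the 8 samples was left out. Mlxipl and Thrsp overlapped with the tumors, each at the value of 1 tumor. With a lone tumor, again assumed to vary like the livers, other genes passed. Without 2e, Mlxipl was lower after SALI (-1.16, limma, adjusted p = 0.00215), and without 3e, Thrsp was (-2.98, limma, adjusted p = 0.0109). Acaca and Elovl6 also overlapped and did not pass, with Elovl6 passing without C097 (-0.74, limma, adjusted p = 0.0197). Each group enters 2 of the 3 comparisons, so the comparisons share samples.

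Around these genes, 63 others of the pathway were examined in 4 lists, of which 60 were tested. After SALI, against C 8w, 12 rose and 22 fell, and their median log2 fold change was -0.30, where 25.3% of all genes rose, 14.1% fell and the median was 0.12. In C 12w against C 8w 5 rose and 9 fell, where 12.2% of all genes rose and 6.98% fell. In the SALI livers against the tumors 12 were higher and 16 lower, where 17.4% of all genes were higher and 15.4% lower. The counts of each list below read against the same shares.

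Of 10 genes that supply carbon and NADPH, 2 rose and 4 fell in the SALI livers against C 8w, where 25.3% of all genes rose and 14.1% fell. The sugar enzymes led the falls. Khk, fructokinase, read 87.4, 88.3 and 98.2 FPKM in C 8w and 26.8, 39.0 and 37.1 after SALI (log2 fold change -1.40, SE 0.16, limma, adjusted p = 0.000288). Pklr, the liver pyruvate kinase and a ChREBP target that shares 20.5% of its windows with other genes, fell from a mean of 11.1 ± 1.49 to 4.83 ± 1.72 FPKM (SD, n = 3 each; limma, adjusted p = 0.00562). Tkt and Taldo1, of the nonoxidative pentose phosphate pathway, rose by 0.77 and 0.69 on the log2 scale (limma, adjusted p = 0.0162 and 0.00348), the former not without 1a or 2a (limma, adjusted p = 0.0573 and 0.0532). Khk was lower in both tumors than in C 8w, at 50.3 and 58.9 FPKM (limma, adjusted p = 0.0251), a call lost without 1a, 2a, 3a or 2e (limma, adjusted p = 0.0712, 0.0660, 0.0837 and 0.0518) or with equal sums (adjusted p = 0.0561). Between the SALI livers and the tumors, Taldo1 was higher by 1.09 and Pklr differed by -1.28 on the log2 scale (limma, adjusted p = 0.000788 and 0.00533).

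The other enzymes of chain building and desaturation went both ways after SALI. Of 14 tested, 3 rose and 7 fell in the SALI livers against C 8w, where 25.3% of all genes rose and 14.1% fell, with a median log2 fold change of -0.92. Fads1 and Fads2, the desaturases of polyunsaturated fatty acids, read 5.66, 6.48 and 5.12 and 30.3, 33.4 and 30.9 FPKM after SALI, against at least 19.5 and 88.01 in C 8w. C097 was close to its group here, unlike for Fasn and Thrsp. Their log2 fold changes were -2.19 (SE 0.51, limma, adjusted p = 0.0101) and -1.78 (SE 0.44, limma, adjusted p = 0.0136), the latter lost without 1a (limma, adjusted p = 0.0573). Hacd2, a dehydratase of fatty acid elongation, rose from a mean of 10.3 ± 0.916 to 27.6 ± 3.61 FPKM (SD, n = 3 each; log2 fold change 1.34, SE 0.12, limma, adjusted p = 9.13e-05). Acsl3, a fatty acyl-CoA synthetase, rose by 0.72 (limma, adjusted p = 0.0209), which did not hold with median-ratio scaling or quantile normalization (limma, adjusted p = 0.0644 and 0.0657) nor without any of 1a, 2a, 3a, C096 and C097 (limma, adjusted p between 0.0507 and 0.0672). Of the 14, 3 rose and 1 fell in C 12w against C 8w. Acsl3 and Acsl5 rose (1.24 and 0.84 on the log2 scale, limma, adjusted p = 0.00959 and 0.0324), and Acacb, the acetyl-CoA carboxylase of the mitochondrial surface, fell to 3.36 and 3.52 FPKM from at least 5.89 in C 8w (-0.76, limma, adjusted p = 0.00936). The Acsl5 call was lost without 1a, 2a, 3a, C098 or 2e (limma, adjusted p = 0.0715, 0.0958, 0.0810, 0.0535 and 0.0720), with no floor or with median-ratio scaling (limma, adjusted p = 0.0598 and 0.0610). Between the SALI livers and the tumors 2 were higher and 7 lower, Fads1 by -3.34 and Fads2 by -3.12 on the log2 scale (limma, adjusted p = 0.00306 and 0.00220), Hacd2 by 1.67 and Hacd3 by 0.55 (limma, adjusted p = 6.04e-05 and 0.0414). Hacd3 passed without C096, and not without any of the other 7 samples (limma, adjusted p between 0.0512 and 0.117), nor with no floor, equal sums, quantile normalization or only the groups compared (limma, adjusted p = 0.0551, 0.196, 0.221 and 0.121). The values of Fads1 and Fads2 were -2.26 and -2.10 without 2e and -4.41 and -4.14 without 3e. In the tumors Fads1, Fads2, Elovl2 and Elovl5 exceeded 3e by at least 1 on the log2 scale in 2e, as Scd1 did, and Fads2 read 572 FPKM in 2e and 138 in 3e.

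The genes of glycerolipid assembly and lipid droplets went both ways. Of 15 tested, 4 rose and 4 fell in the SALI livers against C 8w, where 25.3% of all genes rose, close to the share of the list, and 14.1% fell. Cidea and Cidec, which enlarge lipid droplets, rose. Cidea read at most 0.362 FPKM in C 8w and 4.18, 10.1 and 3.72 after SALI (log2 fold change 2.42, SE 0.36, limma, adjusted p = 0.00126), and Cidec read 9.24, 12.9 and 16.4 and then 72.1, 60.6 and 52.0 (2.20, SE 0.32, limma, adjusted p = 0.00105). G0s2, an inhibitor of the lipase ATGL, fell from a mean of 38.4 ± 12.4 to 9.11 ± 4.38 FPKM (SD, n = 3 each; -1.99, SE 0.38, limma, adjusted p = 0.00458), and Agpat2, of phosphatidic acid synthesis, fell by 1.03 on the log2 scale (limma, adjusted p = 0.00446). In C 12w against C 8w 0 rose and 4 fell, where 12.2% of all genes rose and 6.98% fell. Lpin1, a phosphatidate phosphatase, was 9.01 and 4.65 FPKM in 2e and 3e against at least 29.0 in C 8w (-2.19, SE 0.27, limma, adjusted p = 0.00260), and Lipe, hormone-sensitive lipase, was 1.40 and 1.43 against at least 3.05 (-0.84, limma, adjusted p = 0.00481). Between the SALI livers and the tumors 7 were higher and 4 lower, with Cidec at 2.14, Cidea at 1.98, G0s2 at -2.66 and Agpat2 at -1.12 on the log2 scale (limma, adjusted p = 0.00265, 0.00687, 0.00246 and 0.00606). The value of Cidec was 2.76 without 2e and 1.53 without 3e.

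**Figure D4:**
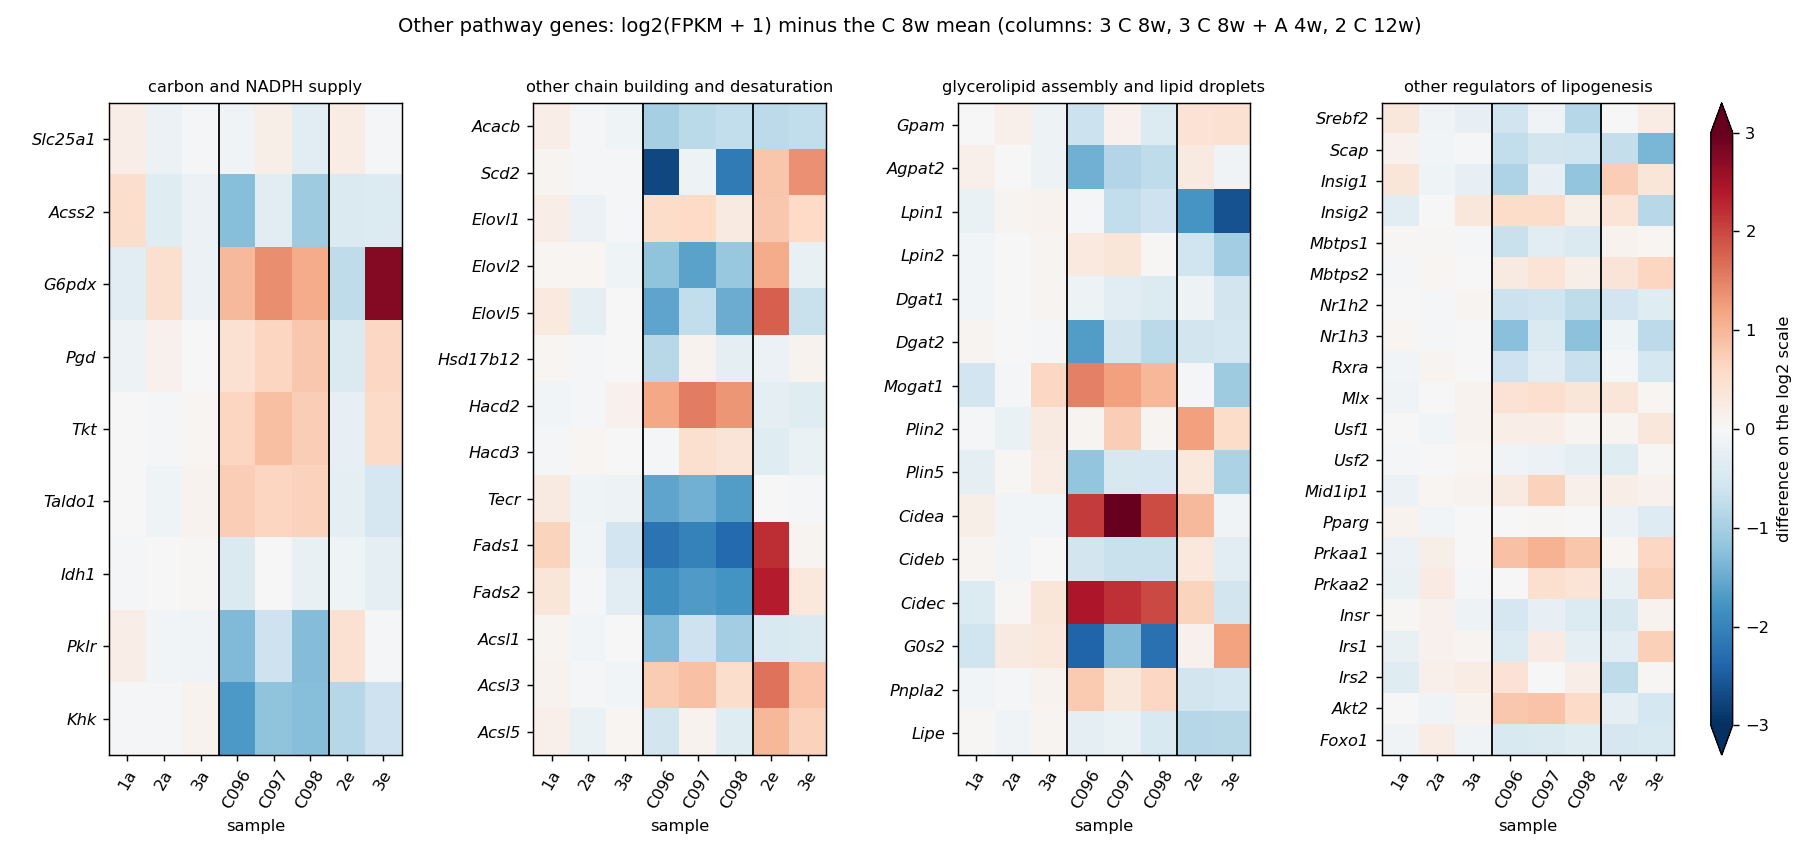
Heatmaps of log2(FPKM + 1) minus the mean of the 3 C 8w samples for the other pathway genes described, in 4 lists; columns are samples, and black lines part the groups. Fads1, Fads2 and G0s2 are blue and Cidea and Cidec red in all 3 SALI livers, and Fads1, Fads2 and Elovl5 are deepest red in tumor 2e.

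Among 21 other regulators tested, 3 rose and 7 fell in the SALI livers against C 8w, where 25.3% of all genes rose and 14.1% fell. Both liver X receptors, which switch on Srebf1 in response to oxysterols, were lower. Nr1h3 (LXRα) read 30.0, 28.2 and 28.4 FPKM in C 8w and 11.5, 21.3 and 11.8 after SALI (log2 fold change -0.97, SE 0.24, limma, adjusted p = 0.0146), and Nr1h2 (LXRβ) fell by 0.67 (limma, adjusted p = 0.00167). The Nr1h3 call was lost without 1a, C096 or C098 (limma, adjusted p = 0.0540, 0.0527 and 0.0534). Prkaa1, the catalytic AMPK subunit α1, rose by 0.92 and Akt2, a kinase of insulin signalling, by 0.75 (limma, adjusted p = 0.00320 and 0.00203). In C 12w against C 8w 1 rose and 3 fell, together close to the 19.2% of all genes that changed. Scap, the escort of SREBP out of the endoplasmic reticulum, was 27.9 and 17.2 FPKM in 2e and 3e against at least 43.7 in C 8w (-1.04, SE 0.19, limma, adjusted p = 0.0103). Foxo1 fell by 0.47 and Mbtps2, a protease that releases SREBP and shares 28.9% of its windows with other genes, rose by 0.51 (limma, adjusted p = 0.0367 and 0.0316), and both calls were lost without 1a, 2a, 3a or 3e (limma, adjusted p between 0.0717 and 0.107), Foxo1 also without C098 or 2e (limma, adjusted p = 0.0605 and 0.0589). With no floor or only the groups compared both were lost too (limma, adjusted p between 0.0549 and 0.0741), and Foxo1 with equal sums (adjusted p = 0.112). Between the SALI livers and the tumors 2 were higher and 2 lower. Insig1, an anchor of SCAP and a SREBP target, was lower by 1.33 and Mbtps1 by 0.56, while Akt2 was higher by 1.15 and Prkaa1 by 0.57 (limma, adjusted p = 0.00940, 0.0107, 0.000525 and 0.0436). Of the fits that left out a sample, Prkaa1 passed there only in that without 3e, and with all samples its call was lost with no floor, equal sums or only the groups compared (limma, adjusted p = 0.0733, 0.205 and 0.0977), the last of which also ended that of Mbtps1 (adjusted p = 0.0544).

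The genes whose pattern over the 8 samples came nearest to the mean row z-score of the 9 genes were Iyd, Ctdsp1, Ccl5, Gpr146, Uros and Nat8f2. Their mean absolute difference from it was between 0.31 and 0.35, and the median over all genes tested was 0.93. Among the 9 genes themselves this difference ran from 0.39 for Fasn to 1.19 for Me1, with Mlxipl at 0.71 and Acaca at 0.92. The mean thus joins genes that moved in opposite directions and is not a pattern that all 9 share. Ccl5, a chemokine, read 1.75, 1.65 and 2.01 FPKM in C 8w, 0.269, 1.26 and 0.273 after SALI, 4.62 in 2e and 1.37 in 3e. Nat8f2 read 80.0 FPKM in 2e and 1.19 in 3e, and in the SALI livers it was 0.616, 7.30 and 1.495, again highest in C097.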

How the data were processed

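The authors deposited FPKM values of 22504 Ensembl genes for 8 samples, which were grouped by their treatment labels. Bowtie 0.12.2 and the build mm8 are named in the submitters' processing notes. The counter and the annotation are not given in the sources used here. Genes that reached FPKM 1 in 4 or more samples were compared as log2(FPKM + 1) in R 4.3.3 with limma 3.58.1 (lmFit, eBayes with trend, two-sided), in 1 fit of 3 groups, with Benjamini-Hochberg adjustment over all genes tested and a threshold of 0.05. The fit was tested on simulated data. The study names no test for single genes, and its read filter was replaced by this floor. Shared sequence is the percentage of 50-base windows of GENCODE M21 transcripts that also occur elsewhere among genes (Python 3.11.15).

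The 10 genes and all lists were chosen with earlier results of these data known. Every one of the 10 is given. From each other list and comparison, at most the 2 largest rises and falls among genes called whose groups did not overlap are named, with the 6 genes nearest in pattern. Others (markers, Gapdh, Elovl2, Elovl5) were named after their values were seen. Alternatives were another pseudocount, floors, scalings, eBayes without trend, sample weights, a fit of just the compared groups, a minimum log2 fold change of 1, genes with at most 2% shared sequence, each sample left out, and the replicate number as a block. A crossed block and the alternatives for genes of the other lists were added after seeing the data. Of the genes the rule names, 1 is not reported here, though it is included in the counts.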

Additional observations from a re-analysis of the deposited data

How the results depend on the processing

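Depth is unknown, so counting error could not be given for low genes such as Pnpla3, and groups of 3, 3 and 2 samples limit every comparison. In C 8w + A 4w against C 8w, 5 of the 9 genes were called. The count was 3 (of 10 tested) with no floor, 8 with quantile normalization, 8 with only both liver groups in the fit, 9 with sample weights, 3 (of 4 tested) among genes with little shared sequence, and between 3 and 8 when a sample was left out. Calls over all genes moved too, to 4310 (of 17762 tested), 4105, 5186 and 5838 under the first 4 of these. The other pathway genes called numbered 34 and then 19 among genes with little shared sequence, 14 at a log2 fold change of at least 1, and between 20 and 42 with a sample left out. All genes called numbered 4034, and 2194, 1128, and between 2460 and 5108 under the same alternatives. Median-ratio scaling moved the median of all genes from 0.12 to 0.00501 and the share of calls that were higher from 64.2% to 49.4%. With it 1 of the 9 genes was higher and 5 were lower, Elovl6 being added (limma, adjusted p = 0.0381).

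In C 12w against C 8w, 1 of the 9 genes was called, 2 with equal sums, 0 with sample weights, 0 among genes with little shared sequence (Me1 not tested), 0 at a log2 fold change of at least 1, and between 0 and 3 with a sample left out. The other pathway genes called numbered 14 and then 5 with sample weights, 8 among genes with little shared sequence, 4 at a log2 fold change of at least 1, and between 5 and 21 with a sample left out. All genes called numbered 1962, and 535, 1241, 533, and between 676 and 3667 in the same order. With the replicate block (numbers 2 and 3) 0 of the 9 genes, 1 other pathway gene and 252 of all genes were called, and with the crossed replicate block, chosen after seeing the data, 0, 0 and 16. Across all genes tested, the difference 2e minus 3e had a correlation of -0.19 with the difference 2a minus 3a. The numbers were therefore not taken to pair the mice. The share of calls that were higher was 63.6%, and 47.4% with median-ratio scaling. In C 8w + A 4w against C 12w, 5 of the 9 genes were called, 3 (of 4 tested) among genes with little shared sequence, and between 5 and 6 with a sample left out. The other pathway genes called numbered 28, then 16 among genes with little shared sequence, and between 22 and 32 with a sample left out. All genes called numbered 3356, then 1996 with only the 2 groups compared, 1907 with sample weights, 1767 among genes with little shared sequence, 1177 at a log2 fold change of at least 1, and between 2454 and 4142 with a sample left out. The share of calls that were higher was 53.1%, and 35.9% with equal sums.

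Several log2 fold changes that were not called changed sign with a sample left out. They ran in C 12w against C 8w from -0.52 to 0.91 for Srebf1 and from -3.39 to 0.0942 for Thrsp, and in C 8w + A 4w against C 12w from -0.0206 to 0.40 for Acaca, from -2.98 to 0.51 for Thrsp and from -1.16 to 0.11 for Mlxipl. Acaca was at -0.0206 without C097 and -0.0119 without 3e. A minimum log2 fold change of 1 ended the calls of Me1 against C 8w, both after SALI and in C 12w. Of the values of the 9 genes under the alternatives other than this and leaving out a sample, 12 came to pass the test and 5 no longer passed it, and 0 changed sign. Of those of the other named pathway genes, 367 of 414 kept their call under the same alternatives and 273 of 320 with a sample left out. With no floor the calls of Fasn and Thrsp after SALI against C 8w were lost (limma, adjusted p = 0.0698 and 0.0637). In C 12w against C 8w sample weights ended the calls of Me1, Khk, Acacb, Acsl5, Foxo1 and Mbtps2, and the replicate block every named call but that of Lpin1. In the SALI livers against the tumors sample weights ended those of Hacd3, Agpat2, Mbtps1 and Prkaa1. The cause of these changes was not tested, except that fewer genes were tested among those with little shared sequence.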
